A study of Mus musculus with 50 samples.

Results

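The genes described here are 10 immediate early genes of the AP-1, Egr and Nr4a kind: Fos, Fosb, Jun, Junb, Jund, Egr1, Nr4a1, Nr4a2, Klf6 and Ier3. They were taken by name, and all 10 were found among the 19224 gene symbols of the count matrix. Their co-expression, their spread over libraries and their levels by cell class were examined in cells with at least 1000 genes counted and at most 10% mitochondrial counts.

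The cells came from mice that had received 1 haematopoietic stem cell (HSC) each from a β-actin-GFP transgenic B6-Ly5.2 donor, with unlabelled whole marrow of B6-Ly5.2 mice as competitor. All recipients were B6-Ly5.2 mice given 9.0 Gy of irradiation, so every labelled group shares transplantation and irradiation and none is an untreated control. Of the 50 labelled samples, 10 were taken 1 month, 26 were taken 4 months and 14 were taken 12 months after the transplant, 15 of them from marrow with spleen and the rest from marrow, and no age is given. Cells enriched for c-Kit were sorted singly by surface markers or GFP, and the 3' ends of their polyadenylated RNA were sequenced with a variant of Smart-seq2 (STRT-seq).

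In all, 4185 of 4271 cells were kept, in 67 libraries of 21 to 92 cells. A kept cell had 122013 counts and 4186 counted genes in the median, and library totals ran from 1665151 to 26184494 counts. None of the cell names holds a sample title, so the month, tissue and gate of a cell are unknown. All cells were handled as 1 pooled sample, no comparison between months was made, and no p-value was computed. Libraries are technical units here, not replicates of a group. No cell name occurred more than once, and 93 of 95 barcode numbers recurred in more than 1 library.

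Immediate early genes are transcribed within minutes of a signal at the cell surface, without new protein synthesis, because the transcription factors that switch them on are already present and need only be phosphorylated. Fos and Jun proteins pair through leucine zippers to form AP-1, Egr1 is a zinc finger factor and Nr4a1 and Nr4a2 are orphan nuclear receptors. Most of their messenger RNAs are unstable, so the level falls soon after the signal ends. In blood stem cells Egr1 and the Nr4a receptors are known from mouse knockouts as brakes on proliferation. Tissue dissociation and cell sorting are themselves known to induce these genes, so their RNA can be made before or after a cell leaves the animal.

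Promoter sequences are shown for 4 members that differ in how they moved in these cells. Fos and Junb were the pair with the highest correlation between cells. Nr4a1 had the widest spread over libraries in all kept cells, and Ier3 moved apart from the others. The sequences are RefSeq promoters of GRCm38.p6, 250 bases before to 50 bases after the annotated start, 5′ to 3′ on the gene's strand. Capitals mark TGACG, the core of the cyclic AMP response element, or its reverse complement, further the TATA motif TATAAA, and in Ier3 the match to the NF-kB site.
Fos, chr12:85473640-85473939, plus strand: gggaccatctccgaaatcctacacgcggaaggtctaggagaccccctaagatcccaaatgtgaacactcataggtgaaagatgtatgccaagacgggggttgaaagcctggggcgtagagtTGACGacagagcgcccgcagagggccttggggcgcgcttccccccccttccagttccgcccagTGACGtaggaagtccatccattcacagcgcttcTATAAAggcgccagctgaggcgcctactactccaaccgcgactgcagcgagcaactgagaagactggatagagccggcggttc
Junb, chr8:84978699-84978998, minus strand: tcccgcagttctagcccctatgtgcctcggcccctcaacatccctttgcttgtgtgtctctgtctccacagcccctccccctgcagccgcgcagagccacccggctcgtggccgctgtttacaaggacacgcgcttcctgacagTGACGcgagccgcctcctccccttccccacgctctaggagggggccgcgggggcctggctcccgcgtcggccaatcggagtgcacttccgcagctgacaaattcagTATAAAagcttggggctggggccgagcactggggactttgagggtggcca
Nr4a1, chr15:101266596-101266895, plus strand: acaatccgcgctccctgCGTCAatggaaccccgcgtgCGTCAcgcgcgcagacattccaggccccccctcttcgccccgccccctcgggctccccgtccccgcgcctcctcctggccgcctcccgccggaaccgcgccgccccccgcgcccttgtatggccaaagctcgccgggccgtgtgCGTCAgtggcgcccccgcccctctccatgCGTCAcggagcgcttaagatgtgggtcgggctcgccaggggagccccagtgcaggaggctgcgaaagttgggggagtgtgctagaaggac
Ier3, chr17:35821463-35821762, plus strand: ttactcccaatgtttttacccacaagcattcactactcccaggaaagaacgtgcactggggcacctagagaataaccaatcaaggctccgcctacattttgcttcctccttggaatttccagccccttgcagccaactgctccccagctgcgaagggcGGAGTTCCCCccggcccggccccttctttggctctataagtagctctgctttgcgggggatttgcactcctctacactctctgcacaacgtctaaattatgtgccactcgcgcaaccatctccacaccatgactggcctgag

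TGACG stood in the promoters of 5 of the 9 members with an entry (Fos, Fosb, Junb, Nr4a1 and Nr4a2), against 20.8% of all 32851 mouse promoters of the same length. Nr4a1 held it 4 times, Fos 2 times, Junb 1 time and Ier3 0 times. The full palindrome TGACGTCA, the AP-1 motif TGANTCA and the CArG box were in none of the 9, and in 1.79%, 7.81% and 1.63% of all promoters. GCGNGGGCG, the motif bound by Egr1, was in 3 of 9 (Fosb, Nr4a1 and Nr4a2) and in 5.55% of all. TATAAA was in 3 of 9 (Fos, Junb and Nr4a2) and in 13.6% of all, and the match to the NF-kB site in 4 of 9 (Fos, Fosb, Nr4a1 and Ier3) and in 6.93% of all. All motifs were searched on both strands. Every TGACGTCA also counts as a TGACG. A match describes letters in this window and is not a measured binding site. In Junb the TATAAA stands at the RefSeq start, and the GENCODE start of the gene lies 30 bases further downstream. For Nr4a1 the GENCODE gene begins further upstream than this RefSeq start.

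Levels are given as CPM, the counts of a gene scaled to a common total of counts, from the summed counts of a group of cells. Because counting was enriched for 3' ends and no length was applied, CPM values are compared between cells and libraries for 1 gene at a time, not between genes. Intervals are exact Poisson intervals on counts or exact binomial intervals on shares of cells, at 95%, and cover counting error only. Amplified copies of 1 molecule are not independent, and the median counted gene in a cell had 10 counts, so intervals on CPM can be too narrow.

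All 10 genes were counted in these cells, and 7 of them in most cells. Fos, the most inducible AP-1 subunit, was at 992 CPM (990 to 995) and was counted in 86.9% of cells. Its lowest library was at 87.1, the median library at 1013 and the highest at 4083 CPM. Fosb, its close relative, was at 88.5 CPM over all cells and was counted in 43.8% of them, and its libraries ran from 3.54 through a median of 82.4 to 350 CPM. For Fos the range over libraries was far wider than the counting interval.

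Of the Jun genes, Jun was at 424 CPM (counted in 81.7% of cells) with libraries at 93.5, 413 and 1696 CPM for the lowest, the median and the highest. Junb was at 299 CPM (86.0% of cells) with libraries at 96.6, 268 and 842 CPM. Jund, which in most tissues is expressed steadily rather than induced, was at 4.13 CPM (20.8% of cells) and its libraries ran from 0 (in Lib67, where a count of 0 allows up to 0.61 CPM) through 3.05 to 26.4 CPM. The 3' end of Junb overlaps that of Prdx2, on the other strand, by 351 bases in the GENCODE annotation. Antisense genes also lie over Jun and Jund. No source used here says whether counting used strand, and without strand the reads of such partners cannot be told apart. Prdx2 was at 1517 CPM in erythroid-like cells, against 616 CPM in HSC-like cells, while Junb was at 166 CPM against 367 CPM. The 2 genes also differed in opposite directions in cycling, megakaryocyte-lineage-like, dendritic-like, plasma cell-like and T-lineage-like cells. In neutrophil-lineage-like cells both were higher, Prdx2 at 827 CPM and Junb at 477 CPM. Both were lower in monocyte or macrophage-like, B-lineage-like and unnamed cells. The part of Prdx2 reads in the Junb counts was not tested.

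Egr1 was at 123 CPM and counted in 64.4% of cells. Its libraries ran from 15.9 through 116 to 420 CPM. Nr4a1 was at 106 CPM and counted in 58.6% of cells, and its lowest, median and highest libraries stood at 0.786, 91.2 and 321 CPM. Its relative Nr4a2 was at 19.4 CPM in 22.0% of cells, with libraries from 0 (again Lib67) through 16.2 to 106 CPM. Among the 10 members Nr4a1 had the widest spread over libraries in all kept cells, with an SD of 1.84 on the log2 scale. In HSC-like cells alone, over 57 libraries, Fosb (1.98) and Nr4a2 (1.87) spread more than Nr4a1 (1.74).

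Klf6, a zinc finger factor that is also quickly induced, was at 233 CPM (75.1% of cells) with libraries at 36.8, 233 and 904 CPM. Ier3, which encodes a short-lived regulator of survival signalling and is a known target of NF-kB, was at 130 CPM (66.4% of cells) with libraries at 11.0, 109 and 341 CPM. Ier3 had the smallest spread of the members, with an SD of 0.78 on the log2 scale. Even that lay above the median of 0.58 over the 7376 genes counted in at least 20% of cells.

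How evenly single cells shared a gene's level differed between members. The tenth of cells with the highest Nr4a2 held 93.3% of the summed per-cell level of that gene. For Jund, Fosb and Nr4a1 the same share was 82.0%, 72.6% and 69.8%. For Junb, Ier3 and Klf6 it was 49.4%, 51.8% and 53.1%, and the median over the 7376 genes was 58.5%. The members thus lay on both sides of the median gene.

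Runs of libraries with neighbouring numbers in their names, picked out after their values were seen, had like levels. In the 10 libraries Lib6 to Lib15 Fos lay between 2497 and 4083 CPM and Nr4a1 between 158 and 312 CPM. The 4 libraries Lib68 to Lib71 had Fos between 184 and 393 CPM and Nr4a1 between 3.59 and 8.41 CPM. In the 3 libraries Lib114 to Lib116 Fos lay between 87.1 and 165 CPM and Nr4a1 between 17.1 and 31.5 CPM. Ier3 did not follow this order: it lay between 23.5 and 103 CPM in Lib6 to Lib15, between 100.6 and 153 CPM in Lib68 to Lib71 and between 119 and 143 CPM in Lib114 to Lib116. The 3 libraries Lib1 to Lib3 were low in each, with Fos between 283 and 493 CPM, Nr4a1 between 0.786 and 3.55 CPM and Ier3 between 11.0 and 71.0 CPM.

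**Figure D1:**
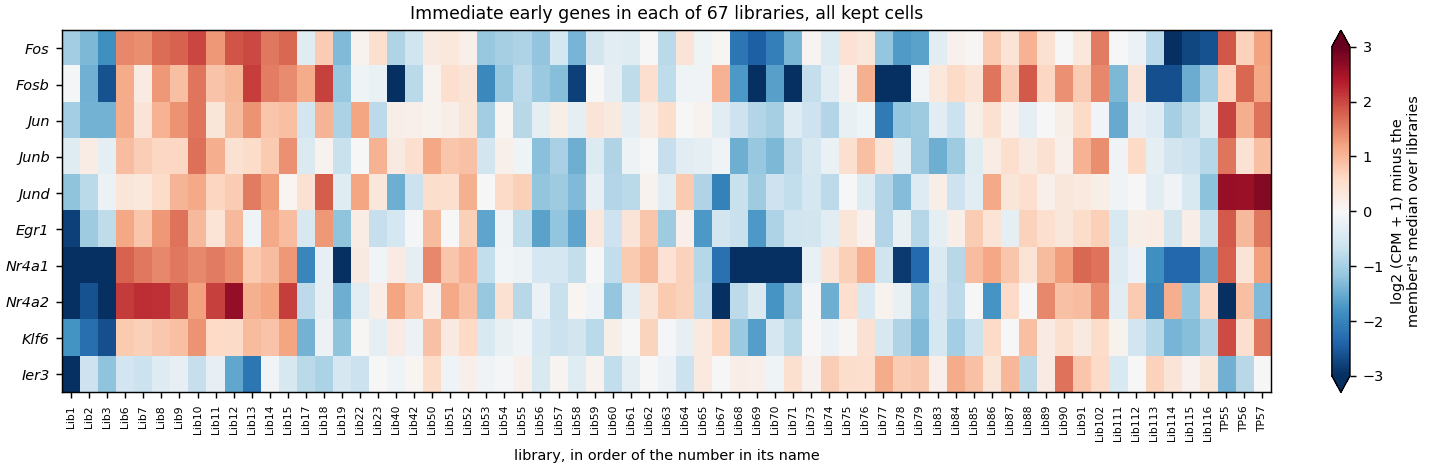
Level of each of the 10 immediate early genes (rows) in each of 67 libraries (columns, in order of the number in the library name), as log2(CPM + 1) minus that gene's median over libraries. Lib6 to Lib15 are mostly red in the rows other than Ier3 and mostly blue in the Ier3 row, and Lib68 to Lib71 and Lib114 to Lib116 are blue for Fos and for Nr4a1.

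Values within HSC-like cells, the largest named class, are a description of the same libraries, since the runs were picked on levels that include these cells. Over the 57 libraries with at least 5 HSC-like cells, Fos in these cells ran from 116 through a median of 1130 to 6237 CPM. In Lib6 to Lib15 the HSC-like cells had between 3719 and 6237 CPM of Fos and between 277 and 833 CPM of Nr4a1. Those of Lib68 to Lib71 had between 250 and 446 CPM of Fos and between 2.51 and 10.5 CPM of Nr4a1. In Lib114 to Lib116 Fos in HSC-like cells lay between 116 and 274 CPM, which overlaps the range of Lib68 to Lib71, and in the 40 other libraries it lay between 203 and 4112 CPM, which overlaps every run.

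Between libraries lay 27.2% of the variance between single HSC-like cells for Fos, 22.6% for Nr4a1 and 6.01% for Ier3 (on log2 counts per 10000). Most of the variance of every member was therefore between cells of the same library. The member score, the mean over the 10 genes of log2(counts per 10000 + 1) in a cell, had a Spearman correlation of −0.18 over libraries with their median counts, −0.22 with their mitochondrial share, −0.39 with their number of cells and 0.06 with their share of HSC-like cells. The part of library preparation, month or sort gate in these differences was not tested, since none of them is known for a cell.

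Several members were often counted in the same cell. After each cell was thinned to 30000 counts, which leaves out 551 shallower cells, the median cell had 5 of the 10 members, 1.76% of the 3634 cells had none (1.36 to 2.24) and 10.7% had at least 8 (9.69 to 11.7). Without thinning the median was 6 members in 4185 cells, and 1.03% had none. At least 1 Fos gene and at least 1 Jun gene, the partners of an AP-1 pair, were counted in 70.6% of thinned cells (69.1 to 72.1). A Jun gene without a Fos gene was counted in 17.3%, a Fos gene without a Jun gene in 5.42%, and neither in 6.66%. The corresponding shares in 1416 HSC-like cells were 70.0%, 16.8%, 6.00% and 7.20%. Taken singly, Fos, Jun and Junb were counted in 73.9%, 67.5% and 74.1% of all thinned cells. Genes counted this often fall in the same cell without any link between them. No expected number or share was computed, so these values alone do not show that members go together.

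**Figure D2:**
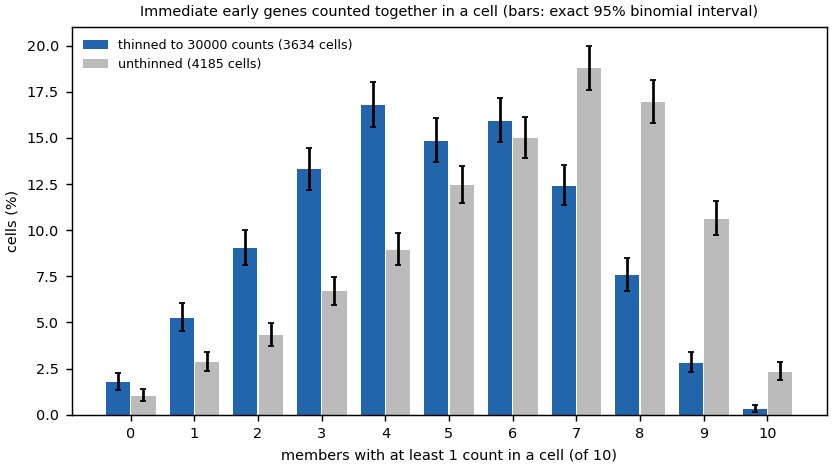
Share of cells (%) by the number of members with at least 1 count, for 3634 cells thinned to 30000 counts (blue) and for all 4185 kept cells unthinned (grey); error bars are exact 95% binomial intervals. Most thinned cells hold between 3 and 7 members, and 11 of them hold all 10.

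A Fos count was found in 93.2% of thinned cells with Fosb (91.5 to 94.6), against 65.4% of those without Fosb (63.5 to 67.2). Nr4a1 was counted in 65.0% of cells with Nr4a2 (60.7 to 69.1), against 35.6% of cells without Nr4a2 (33.9 to 37.3). Fos was counted in 86.5% of cells with Egr1, against 63.4% of cells without it. For Ier3 the difference was small, as Fos was counted in 75.4% of cells with Ier3 (73.4 to 77.2), against 72.02% of cells without Ier3 (69.7 to 74.2). These shares pool cells of libraries with high and low levels, which the within-library correlations do not.

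To set aside differences between libraries, correlations were computed between the cells of each library and the median over libraries was taken. Of 45 pairs of members 44 had a positive median, and the median over all pairs was 0.17 (Spearman, SD of 0.07 over 67 libraries). Pairs of other genes were not computed, so this count has no like background beside it. Of 7376 genes tested, 3406 had a positive median correlation with the member score. Fos was at the centre, with a median of 0.34 against the other 9 genes. Fos with Junb reached 0.45 and was positive in 67 of 67 libraries. Fos with Fosb, with Egr1 and with Jun stood at 0.39, 0.38 and 0.38, each also positive in all 67. Nr4a1 with Nr4a2 was at 0.19 (60 of 66 libraries), lower than Fos with Nr4a1 at 0.34 (63 of 67).

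Jund and Nr4a2, the members counted in the fewest cells, had medians of 0.14 and 0.10 against the others. Ier3, which is counted in most cells, had 0.07. Its pairs ran from −0.03 with Fosb, the only negative pair, to 0.13 with Junb, positive in 51 of 67 libraries. The 36 pairs without Ier3 had correlations from 0.37 to 0.85 over the 67 libraries, and the 9 pairs with Ier3 from −0.30 to −0.06. Over the 57 libraries with at least 5 HSC-like cells, and in those cells alone, the pairs without Ier3 ran from 0.28 to 0.80 and those with Ier3 from −0.23 to 0.09, where Junb (0.07) and Egr1 (0.09) were positive with Ier3. Libraries of 1 run share their level, so these points are not independent and no p was computed.

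Within HSC-like cells alone, in the 33 libraries with at least 20 of them, all 45 pairs were positive, with a median of 0.19. Pairs of other genes were not computed here either, and 4363 of 7376 genes had a positive correlation with the member score. Fos with Ier3 was at 0.23 there, against 0.10 in all kept cells. The depth of a cell moved little with the score: within libraries the median correlation of the member score was −0.04 with total counts, −0.01 with counted genes and 0.05 with the mitochondrial share.

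**Figure D3:**
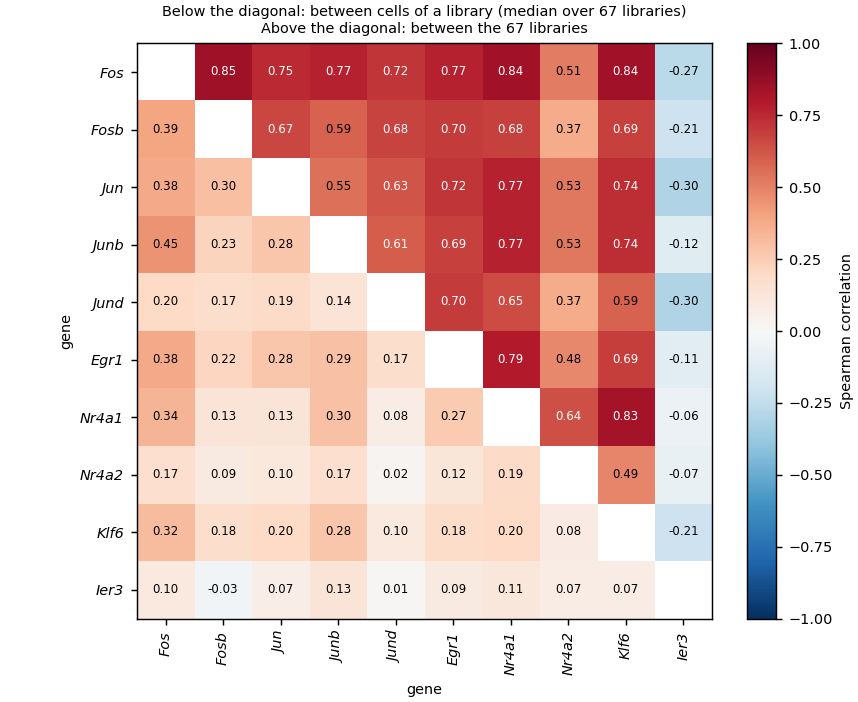
Spearman correlation of each pair of members between cells of a library (below the diagonal, median over 67 libraries, or 66 for pairs with Jund or Nr4a2) and between the 67 libraries (above the diagonal). The Ier3 column above the diagonal is the only one below 0, while Fos with Fosb reaches 0.85.

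The other genes most like the members were themselves mostly immediate early genes. Over genes counted in at least 20% of cells, the highest within-library correlations with the member score were those of Zfp36 (0.58), which encodes a protein that destabilizes short-lived messenger RNAs, and of Dusp1 (0.56), which encodes a phosphatase that switches off MAP kinases. Ier2 (0.49) and Ppp1r15a (0.46), a subunit that restores translation after stress, came next. Also high were H3f3b (0.39), Srsf5 (0.31), Btg2 (0.30) and Ctla2a (0.27). Fosl2, a Fos relative, was at 0.26, Rgs1 and Vmp1 at 0.26, Klf2 and Sik1 at 0.25 and Rgs2 at 0.24. Among the lowest were Ppia (−0.18), Cfl1 (−0.14), Snrpd2 (−0.14) and Hmgn2 (−0.14), all counted in at least 95.1% of cells. The measure is a correlation between cells and describes 67 libraries of shared handling.

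Taken member by member, Zfp36 was among the 3 nearest genes of every member but Ier3, and Dusp1 among those of every member but Nr4a1 and Ier3. For Fos the nearest was Dusp1 (0.52), for Junb Zfp36 (0.41), for Egr1 Ier2 (0.34) and for Nr4a1 Ppp1r15a (0.29). For Nr4a2 Btg2, an antiproliferative gene, stood among the 3 at 0.14. Ier3 shared 1 of these genes, Ier2 (0.14). Its other 2 were Pde4b (0.15), a cyclic AMP phosphodiesterase, and Tsc22d1 (0.14).

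Of 51 other immediate early genes on the list, 29 were counted in enough cells, and 25 of those had a correlation with the member score of at least 0.1, against 1.55% of the 7376 genes. Their median was 0.18, against −0.0029 over all genes. The 4 below were Sgk1 (0.07), Dusp6 (0.05), Myc (0.02) and Klf10 (0.01). Genes that carry the signal to these promoters did not follow: the 15 genes of MAP kinase and serum response input had a median of 0.0002 and none reached 0.1. The 12 AP-1 and CREB partner genes had a median of 0.02, and 1 reached 0.1. Heat shock and handling stress genes, which also rise when tissue is handled, had a median of −0.03, with 2 of 11 at or above 0.1.

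Genes of S phase and of G2/M were at medians of −0.08 (18 genes, none above 0) and −0.06 (13 genes, 2 above 0) in all kept cells. Within HSC-like cells these medians were −0.02 and 0.02. Quiescence genes had a median of 0.03 (11 genes, 2 at or above 0.1) and interferon response genes of 0.02 (17 genes, none at or above 0.1).

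**Figure D4:**
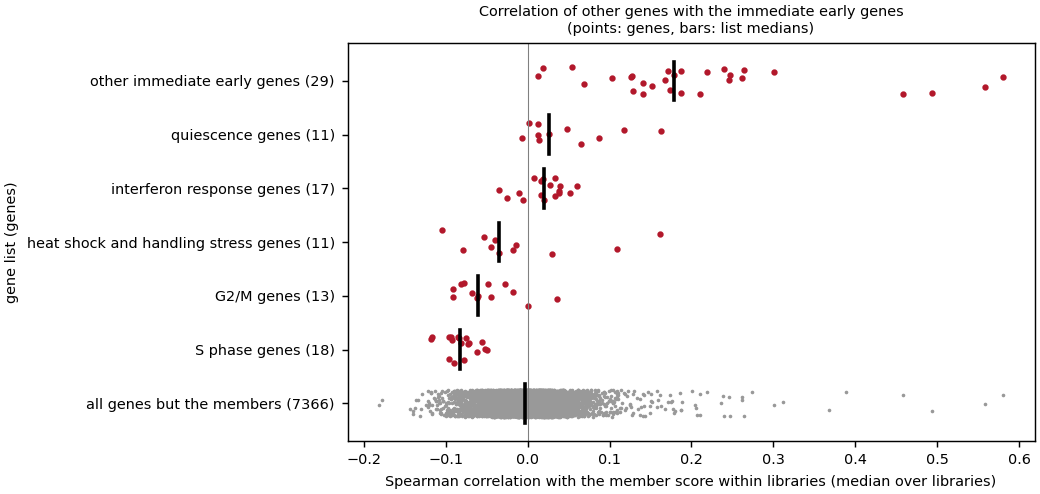
Within-library Spearman correlation of other genes with the member score (x axis, median over libraries) for 6 gene lists and for all tested genes other than the members; points are genes and black bars list medians. The other immediate early genes lie to the right of 0, with Zfp36 at 0.58 and Dusp1 at 0.56, and the S phase genes to the left.

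Cell classes came from clusters made without the members and without the other immediate early genes, and were named from marker genes. The 1571 HSC-like cells (37.5% of the total) had 12 of 16 HSC markers counted in at least 25% of cells, led by Ly6a, Pdzk1ip1 and Procr. Plasma cell-like cells had 8 of 8 of their markers, neutrophil-lineage-like cells 11 of 11, erythroid-like cells 13 of 14, T-lineage-like cells 5 of 9 and B-lineage-like cells 8 of 10, with 2 B markers at 0. There were 383 cycling cells, 117 T-lineage-like, 112 neutrophil-lineage-like, 78 plasma cell-like, 72 B-lineage-like, 69 erythroid-like, 45 megakaryocyte-lineage-like, 25 monocyte or macrophage-like and 20 dendritic-like cells, and 1693 cells stayed unnamed. The unnamed cells had 0 of 9 members called, where 3.77% of 7695 genes were higher and 0.403% lower than in HSC-like cells. They mix 10 unlike clusters, in which Fos ran from 403 to 1882 CPM. All 18 G2/M genes tested were higher in the unnamed cells than in HSC-like cells. The G2/M genes tested were also all higher in every other class set against HSC-like cells, except monocyte or macrophage-like cells (8 of 11). A cluster of 192 unnamed cells led by genes of mitosis such as Nusap1 and Aurkb had Fos at 590 CPM and Junb at 97.9 CPM. The sort gates can set these shares. A member was called different from HSC-like cells past a log2 ratio of 1 (pseudocount 1 CPM), among genes that reached 4 on the log2 CPM scale in 1 of the groups, and no test was possible with 1 pooled sample. Because libraries differ so much, each class is also set against HSC-like cells of the same libraries, where at least 5 cells of both were present.

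**Figure D5:**
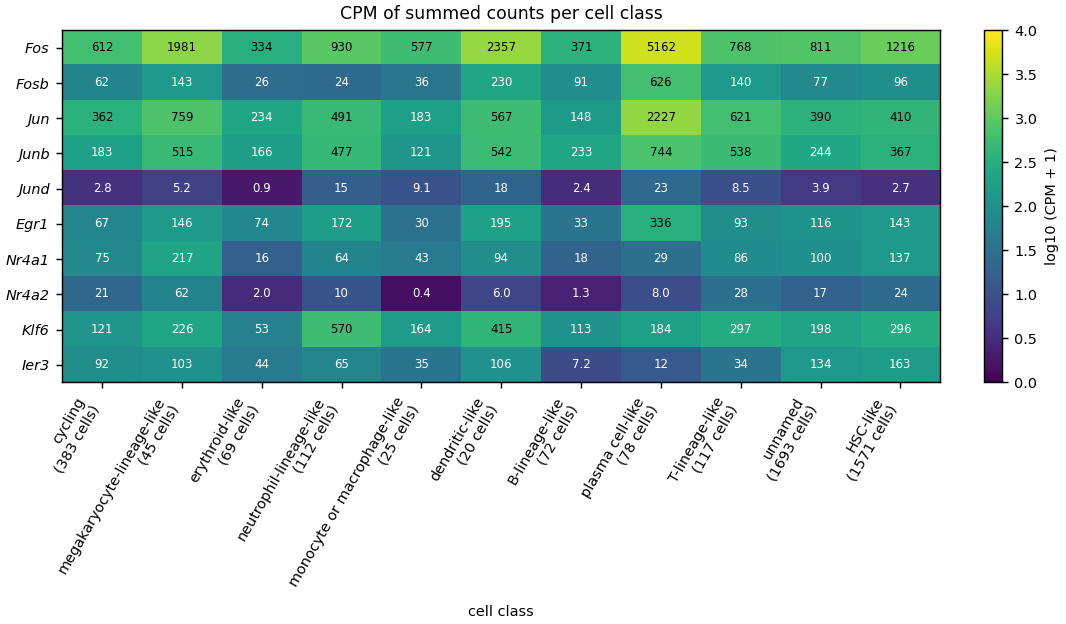
CPM of summed counts (printed in each cell of the map, colour as log10 of CPM + 1, to be read along a row) of the 10 members in 10 cell classes and, at the right, in HSC-like cells. The plasma cell-like column has the highest Fos, Fosb, Jun and Junb of all columns and one of the lowest Ier3 values.

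In cycling cells the pooled level of 9 of the 10 members was below that of HSC-like cells. Jund was at 2.81 CPM in pooled cycling cells, against 2.73 CPM in HSC-like cells, too low to be tested for a call. Within libraries Jund was lower in 27 of 33. These values rest on few counts, as all cycling cells together had 212 counts of Jund. The median library was at 0.517 CPM in cycling cells and at 2.27 CPM in HSC-like cells, so no within-library ratio is given. Of 9 members tested 3 were called lower (Klf6, Egr1 and Junb) and none higher, where 2.64% of 7450 genes were lower and 3.85% higher. Klf6 was at 121 CPM (118 to 123) in cycling cells, against 296 CPM (294 to 298) in HSC-like cells, and was lower in 30 of the 33 libraries with both. Junb was at 183 CPM in cycling cells and 367 CPM in HSC-like cells, and was lower in 31 of 33 libraries. For Egr1 the values were 67.3 CPM in cycling cells and 143 CPM in HSC-like cells, and it was lower in 27 of 33.

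Fos just missed the call with a pooled log2 ratio of −0.99, at 612 CPM in cycling cells against 1216 CPM in HSC-like cells, and was lower in 29 of 33 libraries, where the median log2 ratio was −1.56, past the call. Jun stood at 362 CPM in cycling cells, against 410 CPM in HSC-like cells, a log2 ratio of −0.18, and was lower in 25 of 33 with a median of −0.72. The share of thinned cells with a count differed less than the level. Fos was counted in 72.6% of cycling cells (67.6 to 77.3), against 73.7% of HSC-like cells (71.4 to 76.0), and Klf6 in 56.5% (51.0 to 61.8), against 68.3% (65.8 to 70.7). Over the other immediate early genes 3 of 27 were lower and none higher, with Plk2 at 11.6 CPM in cycling cells against 49.7 CPM in HSC-like cells, Klf2 at 15.1 against 39.5 and Socs3 at 11.0 against 24.3. The list median was −0.55, against −0.05 over all genes tested.

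Plasma cell-like cells, which carried Jchain, Mzb1 and Xbp1, had higher pooled levels of the Fos and Jun genes than HSC-like cells, together with lower Nr4a1 and Ier3. Of 10 members 6 were higher (Fos, Fosb, Jun, Junb, Jund and Egr1) and 3 lower (Nr4a1, Nr4a2 and Ier3), where 14.9% of 7887 genes were higher and 28.7% lower, so the count of lower members is near the background. All 4 libraries with both classes lie in the high run Lib6 to Lib15, with 5 to 8 plasma cell-like cells each, so the pooled ratio mixes class and library. Pooled Fos was at 5162 CPM in plasma cell-like cells, against 1216 CPM in HSC-like cells.

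Within the libraries the Fos difference was much smaller. Fos was at 6686, 8871, 8263 and 6972 CPM in the plasma cell-like cells of Lib6, Lib10, Lib11 and Lib13. In their HSC-like cells Fos was at 4470, 6237, 3811 and 6149 CPM. Plasma cell-like cells were higher in all 4, with a median log2 ratio of 0.54, under the call. Jun was at 3182, 4594, 2418 and 2056 CPM in plasma cell-like cells, against 987, 764, 521 and 1146 CPM in HSC-like cells, higher in all 4. Fosb was at 832, 889, 547 and 845 CPM in plasma cell-like cells, against 144, 255, 273 and 408 CPM in HSC-like cells, higher in all 4. The share of all genes that were higher or lower in all 4 libraries was not computed, so these patterns have no background beside them.

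Nr4a1 was the opposite. It was at 6.26, 37.6, 27.7 and 3.76 CPM in plasma cell-like cells, against 833, 414, 445 and 280 CPM in HSC-like cells of the same libraries, lower in all 4. The values of Lib6 and Lib13 lie below what 3 counts would give (9.39 and 5.64 CPM), so no ratio is given. Ier3 was at 210, 8.94, 0 (which allows up to 11.9 CPM) and 1.88 CPM in plasma cell-like cells, against 100, 108, 208 and 65.8 CPM in HSC-like cells, lower in 3 of 4. Junb was lower in 3 of the 4 libraries, and Egr1 and Jund were each higher in 2 and lower in 2, so the pooled calls of these 3 were not seen within libraries. Klf6, not called in the pooled values, was lower in all 4 with a median log2 ratio of −1.11. Among other immediate early genes 22 of 39 were higher and 9 lower in the pooled values, led by Egr2 (34.7 CPM in plasma cell-like cells, against 0.322 CPM in HSC-like cells), Ier5 (176 against 6.76), Gadd45b (260 against 15.0) and Rhob (345 against 21.8). Heat shock and handling stress genes were higher in 2 and lower in 3 of 12, with Hspa5, a chaperone of the secretory pathway, at 2422 CPM in plasma cell-like cells against 290 CPM in HSC-like cells.

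B-lineage-like cells had 7 of 9 members lower and none higher, where 24.3% of 8165 genes were lower and 17.7% higher. Ier3 was at 7.16 CPM in B-lineage-like cells (4.71 to 10.4), against 163 CPM in HSC-like cells, and Nr4a1 at 18.0 CPM, against 137 CPM. Fosb stood at 91.4 CPM, against 95.6 CPM. B-lineage-like cells had a median of 33520 counts, against 122303 in HSC-like cells. No library held 5 cells of both classes, 41 of the 72 cells came from Lib1, and class and library cannot be told apart.

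In T-lineage-like cells Ier3 was the only one of 9 members called, with 33.7 CPM against 163 CPM in HSC-like cells. Of 8147 genes 15.9% were lower and 16.6% higher, so the count of members is near the background. Ier3 was lower in 3 of 3 libraries with both classes. It was at 2.74, 46.2 and 2.86 CPM in T-lineage-like cells of Lib7, Lib8 and Lib9, against 144, 113 and 128 CPM in their HSC-like cells. The values of Lib7 and Lib9 lie below what 3 counts would give (8.22 and 8.57 CPM). Egr1 was also lower in these 3 libraries, at 46.6, 28.9 and 163 CPM, against 229, 417 and 462 CPM, though the pooled log2 ratio was −0.61. Fos was at 2022, 3078 and 1663 CPM in T-lineage-like cells, against 4274, 3719 and 4762 CPM in HSC-like cells, lower in all 3 with a median log2 ratio of −1.08, against −0.66 in the pooled values. Nr4a2 was lower in those 3 too, at 46.6, 0 and 0 CPM in T-lineage-like cells (the counts of 0 allow up to 17.3 and 8.57 CPM), against 105, 159 and 93.6 CPM in HSC-like cells, while its pooled values were 27.9 CPM and 24.2 CPM. Junb was higher in all 3 with a median log2 ratio of 0.40. Each of these libraries held 5 T-lineage-like cells, so 1 cell can set a value.

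Neutrophil-lineage-like cells had 4 of 10 members lower (Fosb, Nr4a1, Nr4a2 and Ier3) and 1 higher (Jund), where 23.8% of 8354 genes were lower and 21.8% higher, so the count is near the background. Fosb was at 24.3 CPM in neutrophil-lineage-like cells, against 95.6 CPM in HSC-like cells, and within Lib53, Lib54 and Lib55 at 2.46, 9.98 and 26.9 CPM, against 36.0, 77.1 and 116 CPM. Nr4a1, Jun and Fos were also lower in all 3 libraries, Fos at 112, 333 and 414 CPM in neutrophil-lineage-like cells, against 521, 833 and 1087 CPM in HSC-like cells. Pooled Jun was at 491 CPM in neutrophil-lineage-like cells, against 410 CPM, the other direction. Jund was higher in all 3 libraries, at 4.10, 7.74 and 15.9 CPM, against 1.93, 3.72 and 2.11 CPM. In the neutrophil-lineage-like cells of Lib53 3 counts give 2.46 CPM, so the Jund and Fosb values there rest on few counts. The HSC-like values of Jund, from 9 to 13 cells a library, also rest on few counts. Klf6 was at 570 CPM in pooled neutrophil-lineage-like cells, against 296 CPM, but lower in 2 of the 3 libraries. The pooled calls of Nr4a2 and Ier3 were not seen in each library. Nr4a2 was higher in 2 of the 3, at 5.75, 15.0 and 10.8 CPM, against 0.643, 66.0 and 4.93 CPM in HSC-like cells. Its values in Lib53 and its HSC-like value in Lib55 rest on few counts. Ier3 was lower in 2 and higher in 1, at 39.4, 120 and 61.1 CPM, against 164, 74.0 and 123 CPM. Other immediate early genes were higher in 24 of 39 and lower in 3, led by Cebpb (382 CPM in neutrophil-lineage-like cells, against 5.55 CPM in HSC-like cells), Cebpd (208 against 8.58), Ier5 (167 against 6.76) and Gadd45a (182 against 7.50).

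Erythroid-like cells had 7 of 9 members lower and none higher, where 24.1% of 7805 genes were lower and 13.6% higher. Klf6 was at 53.3 CPM in erythroid-like cells, against 296 CPM in HSC-like cells, and Nr4a1 at 15.9 CPM, against 137 CPM. Only Lib9 and Lib23 held both classes. There 5 of the 7 pooled calls (Fos, Fosb, Nr4a1, Klf6 and Ier3) were split, each higher in 1 library and lower in the other. Klf6 was at 116 and 312 CPM in erythroid-like cells of Lib9 and Lib23, against 749 and 271 CPM in their HSC-like cells, and Nr4a1 at 97.8 and 150 CPM, against 439 and 85.6 CPM. Jun, Junb and Nr4a2 were lower in both, and Egr1 was higher in both, at 981 and 129 CPM in erythroid-like cells, against 462 and 62.9 CPM in HSC-like cells, where the pooled Egr1 was at 73.7 CPM against 143 CPM. Of the other immediate early genes 18 of 28 were lower and 2 higher, with Plk2 at 1.66 CPM in erythroid-like cells, against 49.7 CPM.

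Megakaryocyte-lineage-like cells had 1 of 9 members higher, Nr4a2, at 62.0 CPM in these cells (55.4 to 69.2), against 24.2 CPM in HSC-like cells (8.83% of 7826 genes were higher and 6.77% lower). In total 33 of the 45 cells came from Lib102, and without that library the log2 ratio of Nr4a2 was −0.96. Within Lib102 Nr4a2 was at 84.4 CPM in megakaryocyte-lineage-like cells, against 31.2 CPM in HSC-like cells, while Fos was at 2399 CPM against 4112 CPM. Monocyte or macrophage-like cells had 8 of 9 members lower and none higher, where 33.2% of 8541 genes were lower and 28.6% higher. They came from 3 libraries, 18 of the 25 cells from TP56, and without TP56 the log2 ratio of Fos was 0.19 and that of Fosb 0.98. Dendritic-like cells had 2 of 10 members higher (Fosb and Jund) and 1 lower (Nr4a2), where 21.2% of 8084 genes were higher and 34.9% lower. No library held 5 dendritic-like cells, so no within-library value is given.

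One HSC-like cluster differed within the class. Its 61 cells came from 10 libraries, and 38 of them had a cell of the same cluster at the neighbouring barcode number of their library. No such count is given for other clusters, so this one has no background beside it. Jun was at 62.4 CPM in this cluster, against 402 CPM in the 317 other HSC-like cells of the same libraries, Junb at 23.1 CPM against 359 CPM and Nr4a2 at 0.342 CPM against 23.7 CPM. Fos was at 789 CPM in the cluster, against 1070 CPM, and Ier3 at 167 CPM against 214 CPM. Of 7620 genes 21.6% were lower and 6.44% higher in the cluster by a log2 ratio of at least 1. The part of the place of these cells among the barcodes in this difference was not tested. Without the cluster the HSC-like level was 430 CPM for Jun (410 with it), 388 CPM for Junb (367 with it) and 1241 CPM for Fos (1216 with it).

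When the immediate early genes were kept among the clustering genes, 9 members were used. There 2 clusters named HSC-like, of 668 and 350 cells, had 10 and 3 immediate early genes among their 10 leading genes. Only 271 of the 668 cells, and 324 of the 350, were HSC-like in the main clustering. Fos was at 2086 and 3226 CPM in the 2 clusters and Nr4a1 at 269 and 365 CPM. These values describe the clusters because these genes helped to make them. The clusters came from 58 and 52 of the 67 libraries.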

How the data were processed

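The authors deposited raw counts, whole numbers for each gene in each cell. The submitters' processing notes name GRCm38 as build and Trimmomatic 0.36, HISAT2 2.1.0 and HTSeq 0.9.1 as tools. No source used here says whether reads or molecules were counted, or whether strand was used. The 17 columns of 1 small library were not used, nor was a list of sequencing runs, and samples that no column names were not compared. Of 19224 symbols 19071 matched the GENCODE vM21 annotation of GRCm38, and promoters came from RefSeq (GRCm38.p6).

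Cells were kept at 1000 genes and 10% mitochondrial counts. Counts scaled to 10000 per cell gave 2000 variable genes, without immediate early genes, then 30 components, 15 neighbours and Leiden clusters at resolution 1 with seed 0 (scanpy 1.11.5, leidenalg 0.10.2, scikit-learn 1.9.0, numpy 2.4.6, scipy 1.17.1, pandas 2.3.3, Python 3.11.15). Clusters took a lineage name where the markers averaged a log2 ratio of 2 or more against all remaining cells and 3 of them were counted in 25% of cells; an HSC-like cluster needed the HSC list as its highest and 8 markers counted. Doublets were not called, as sorting was by single cells with scatter gates. Thinning drew 30000 counts per cell without replacement.

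Groups were compared by CPM of summed counts. Besides the members, the genes named are the 15 highest and 5 lowest by correlation with the member score, the 3 nearest to each member, at most 4 genes a list past a log2 ratio of 1, and the list genes under the correlation limit, which were named after their values were seen. Some genes that this rule names are not reported here. The members and lists were chosen with earlier results of these data known. The planned comparison of months by edgeR was not run, since no column is tied to a sample. The class ratios and correlations were tested on simulated data. The closing section gives the alternatives tried.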

Additional observations from a re-analysis of the deposited data

How the results depend on the processing

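The summed level of the 10 members (2418 CPM) and the median pair correlation (0.17) moved by less than their SD over libraries under every alternative run, which ranged from 2229 to 2851 CPM and from 0.17 to 0.19. For the sum that SD was 1811 CPM, a wide limit that only a very large move would pass. The lowest sum was without Lib6 to Lib15, an alternative added after seeing the data. The share of cells with at least 5 members depended on depth: it was 53.9% thinned to 30000, 36.8% thinned to 10000, 40.1% for counts of at least 5 unthinned and 76.2% unthinned, the last added after seeing the data. Of the class values, 44 were past a log2 ratio of 1, and 36 to 50 under the alternatives run on all 9 classes. With each library weighed alike, 39 values of 8 classes were past it, against 41 for the same classes in the report, and dendritic-like cells gave no value. With only libraries holding both groups, also added after seeing the data, 26 values of 6 classes were past it, the same count as for those 6 in the report. The equal count hides changes that cancel. Of 54 values compared there, 36 stayed on the same side of the call, 5 fell under it, 5 rose past it and 8 changed sign. Over all alternatives the following class values changed sign, with the value or its alternative past the call. Nr4a2 in T-lineage-like cells was −1.09 with libraries weighed alike and −2.86 with only libraries holding both. Without the library with most cells of the class, Nr4a2 in megakaryocyte-lineage-like cells was −0.96, and Fos and Fosb in monocyte or macrophage-like cells 0.19 and 0.98. With only libraries holding both, Fosb and Egr1 in megakaryocyte-lineage-like cells were −1.20 and −1.005, Fosb, Egr1 and Ier3 in erythroid-like cells 0.28, 1.08 and 0.026, Jun in neutrophil-lineage-like cells −1.30 and Junb in plasma cell-like cells −0.057. The cause was not tested. Of other immediate early genes, 25 of 29 reached a correlation of 0.1, 25 without the library with the highest member score and 28 of 42 at a minimum of 5% of cells. No paired analysis was possible because no column is tied to a numbered sample. Few cells of a class limit the precision of the within-library values: with 5 to 8 cells of a class in a library, 1 cell can set a value.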
